A study of Rattus norvegicus with 10 samples.

Results

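The genes described here are 8 angiogenic and neurotrophic genes of the intervertebral disc, Vegfa, Vegfb, Vegfc, Angpt1, Nrp1, Sema3a, Bdnf and Ntf3, chosen by their symbols in the platform annotation. Each of the 8 had 1 probeset of its own, out of 15037 genes named on the array. RNA came from the nucleus pulposus, the soft inner core of the disc, as cultured cells isolated from male Sprague Dawley rats of 3 to 4 months. In 5 samples the cells carried a lentiviral control hairpin in the pLKO.1 vector (ShCtrl, arrays 1 to 5) and in 5 a hairpin against Bnip3, a receptor that marks mitochondria for removal by autophagy (ShBNIP3, arrays 6 to 10). Both groups were virus-treated cultures sampled 4 days after transduction, and no group without virus was analysed here. The labels give 1 hairpin name per group and do not state whether the samples of a group came from separate animals or cultures. The p-values therefore refer to the spread between these arrays, and that spread may be technical.

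The healthy nucleus pulposus holds neither blood vessels nor nerves, and both can grow into the degenerating disc. Vegfa, Vegfb and Vegfc encode secreted growth factors of the VEGF family, which act on tyrosine kinase receptors of endothelial cells, and Vegfa is a classical target of the hypoxia-inducible factors. Angpt1 encodes angiopoietin-1, the activating ligand of the endothelial receptor Tek (Tie2). Nrp1 encodes neuropilin-1, a coreceptor shared by VEGF and by the class 3 semaphorins, and Sema3a encodes a secreted semaphorin that repels sensory axons through it. Bdnf and Ntf3 encode neurotrophins, which bind the receptors Ntrk2 and Ntrk3 and keep sensory neurons alive.

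Vegfa and Bdnf are each transcribed from several starts, while the array gives 1 value per gene. Which starts that value covers was not examined. For each gene 1 window is shown, to let a reader see the sequence in front of a gene whose level is reported below. The windows run from 250 bases before to 50 bases after a start and are taken from RefSeq (rat assembly GRCr8), where 6 of the 8 genes have an entry, with 14 starts between them. Capitals mark matches, on either strand, to the GC box GGGCGG, the hypoxia response core ACGTG or the CRE half-site TGACG, of which the last pair can overlap. The upstream window of the 2 listed for Vegfa (chr9:22452604-22452903, plus strand) holds 3 GC boxes, and the Bdnf window is the fourth of 6 (chr3:116637608-116637907, plus strand), with 1 overlapping match to both other motifs.
Vegfa: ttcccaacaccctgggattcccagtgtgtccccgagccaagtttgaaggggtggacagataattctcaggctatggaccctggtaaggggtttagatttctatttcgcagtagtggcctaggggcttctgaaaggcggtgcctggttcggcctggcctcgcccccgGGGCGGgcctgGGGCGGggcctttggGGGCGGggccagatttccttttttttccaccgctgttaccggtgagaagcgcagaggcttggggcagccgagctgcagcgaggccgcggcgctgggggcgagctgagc
Bdnf: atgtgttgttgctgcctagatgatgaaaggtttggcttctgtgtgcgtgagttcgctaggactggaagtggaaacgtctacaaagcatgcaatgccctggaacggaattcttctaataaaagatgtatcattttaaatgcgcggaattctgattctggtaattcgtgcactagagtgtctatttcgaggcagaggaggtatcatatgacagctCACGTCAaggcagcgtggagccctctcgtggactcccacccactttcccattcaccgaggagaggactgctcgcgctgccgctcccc
Of all 33469 windows in the table, 33.1% hold the GC box, 19.3% the hypoxia response core and 21.2% the CRE half-site. Among the 14 member windows 7 hold the first, 3 the second, all of Bdnf, and 1 the third. Windows 1 and 2 of Ntf3 nearly coincide and share 1 GC box, and windows 5 and 6 of Bdnf overlap, so these counts are not of separate stretches. The matches are of letters in 1 short window per start and not sites of binding.

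Levels are log2 values, and means are given ± SD. The background level of an array was set at the 95th percentile of its antigenomic probesets, which match no rat sequence, and lay between 6.50 and 6.78. A gene is called at background where no array of the group exceeded it. Brightness depends on the probes, so levels of different genes are not set against each other. Bnip3 itself had a mean of 14.6 ± 0.79 over the ShCtrl arrays and of 11.4 ± 0.77 over the ShBNIP3 arrays (SD, n = 5 each), and every ShBNIP3 array lay under every ShCtrl array. ShCtrl array 4 and ShBNIP3 array 10 stood apart, with mean correlations of 0.983 and 0.986 with the rest of their groups against 0.992 for the other arrays, and results that rest on them are given with and without them. Of the nucleus pulposus markers, Acan, Col2a1 and Car3 were above background on every array, while Tbxt, Noto, Shh, Krt8, Krt18 and Krt19 were at background on all 10. Within that list Col2a1, the main cartilage collagen, fell 1.59-fold (limma adjusted p = 0.013), Car3, a carbonic anhydrase, fell 2.45-fold (limma adjusted p = 0.0048) and Hapln1, a link protein of the aggrecan matrix, rose 2.77-fold (limma adjusted p = 0.026). These were all that passed of 18 measured, 1 higher and 2 lower (16.7% called, against 15.5% of all probesets). Without arrays 4 and 10, 1 was higher and 5 were lower. Acan was among the 5 (limma adjusted p = 0.020), but did not pass with all arrays (0.190). Of the 13 endothelial markers measured, 13 were at background on all arrays, as were 8 of 10 neuronal, 5 of 7 Schwann and glial and 10 of 12 macrophage markers. Among the others S100b, a calcium-binding protein of glia and also of cartilage cells, fell 4.70-fold with no overlap (limma adjusted p = 4.0e-05). Cd68, a lysosomal protein used as a macrophage marker, rose 2.83-fold (limma adjusted p = 0.0018). The lower group of each lay close to background, so both folds are uncertain. S100b was between 6.55 and 7.29 in ShBNIP3, with 1 array under background, and Cd68 between 6.64 and 7.98 in ShCtrl, also with 1.

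Angpt1 was the member that changed. Its level on ShCtrl arrays 1 to 5 was 8.07, 7.96, 6.17, 10.02 and 7.36, and on ShBNIP3 arrays 6 to 10 it was 9.21, 10.05, 10.82, 10.50 and 11.67. The ShBNIP3 arrays were the higher ones, with an overlap through ShCtrl array 4, which lay above ShBNIP3 array 6, and on ShCtrl array 3 the gene was under the background level. Angpt1 rose 5.79-fold, from 7.92 ± 1.40 to 10.4 ± 0.91 (SD, n = 5 each; log2 difference 2.53, SE 0.60, 95% interval 1.23 to 3.84, limma adjusted p = 0.012). It passed in all 10 fits with 1 array left out, with log2 differences between 2.10 and 3.06. The exact two-sided permutation p of the group means was 0.016, where the smallest that 5 against 5 arrays can give is 0.0079. Thus 1 of the 8 genes was called over all arrays, where 15.5% of the 23188 probesets were (7.61% higher and 7.87% lower), and 28.1% of the 11761 above background in at least 1 group. At a minimum of 2-fold the same 1 member was called, against 4.18% of all probesets. None of the 8 had groups without overlap, as 12.9% of all probesets did.

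In RNA of a whole culture, more RNA per cell and more cells of a kind that makes the RNA cannot be told apart. Angpt1 is known as a product of pericytes and other mesenchymal cells, and of 11 smooth muscle and pericyte markers 1 rose and 3 fell (3 rose and 4 fell without arrays 4 and 10, where Abcc9 and Myh11 were added as higher, Myh11 within background, and Kcnj8 as lower). Over all arrays 36.4% of them were called, against 15.5% of all probesets and 28.1% of those above background. The adhesion molecule Mcam rose at least 1.89-fold from background, and the proteoglycan Cspg4, the intermediate filament Des and the receptor Pdgfrb fell 5.88-fold, 5.79-fold and 1.87-fold. The summed signal of that list, to which Pdgfrb as a bright probeset adds much, was as log2 between 15.92 and 16.34 on the ShCtrl arrays and between 15.07 and 15.79 on the ShBNIP3 arrays, and Myh11, Notch3 and Rgs5 were at background on all 10. Annulus fibrosus and fibroblast markers had 4 of 8 lower (50% called), Col1a1, Col1a2, Col3a1 and Thy1, and 0 higher. Col1a2 lost its call without arrays 4 and 10 (limma adjusted p = 0.055). The summed log2 signal of the annulus and fibroblast list was 19.89 to 19.99 in ShCtrl and 19.46 to 19.65 in ShBNIP3, and Tnmd and Pi16 were at background. Col1a1 and Col1a2, bright probesets already given as lower, make up much of that sum. The part of these markers, and of the nucleus pulposus markers, S100b and Cd68 that moved with the hairpin, in the rise of Angpt1 was not tested.

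The named genes outside the list whose profiles over the 10 arrays lay nearest to that of Angpt1, each centred on its own mean, were Cyp7b1, Rnase10 and Cxcl16, at root mean square differences of 0.48, 0.49 and 0.52 log2 units. Cyp7b1 encodes an oxysterol hydroxylase and Cxcl16 a membrane-bound chemokine. They were chosen for their profile, so their difference between groups is not a further result. Cyp7b1 and Rnase10 were under background on 4 of 5 ShCtrl arrays, and Cxcl16 was above background on all 10.

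**Figure D1:**
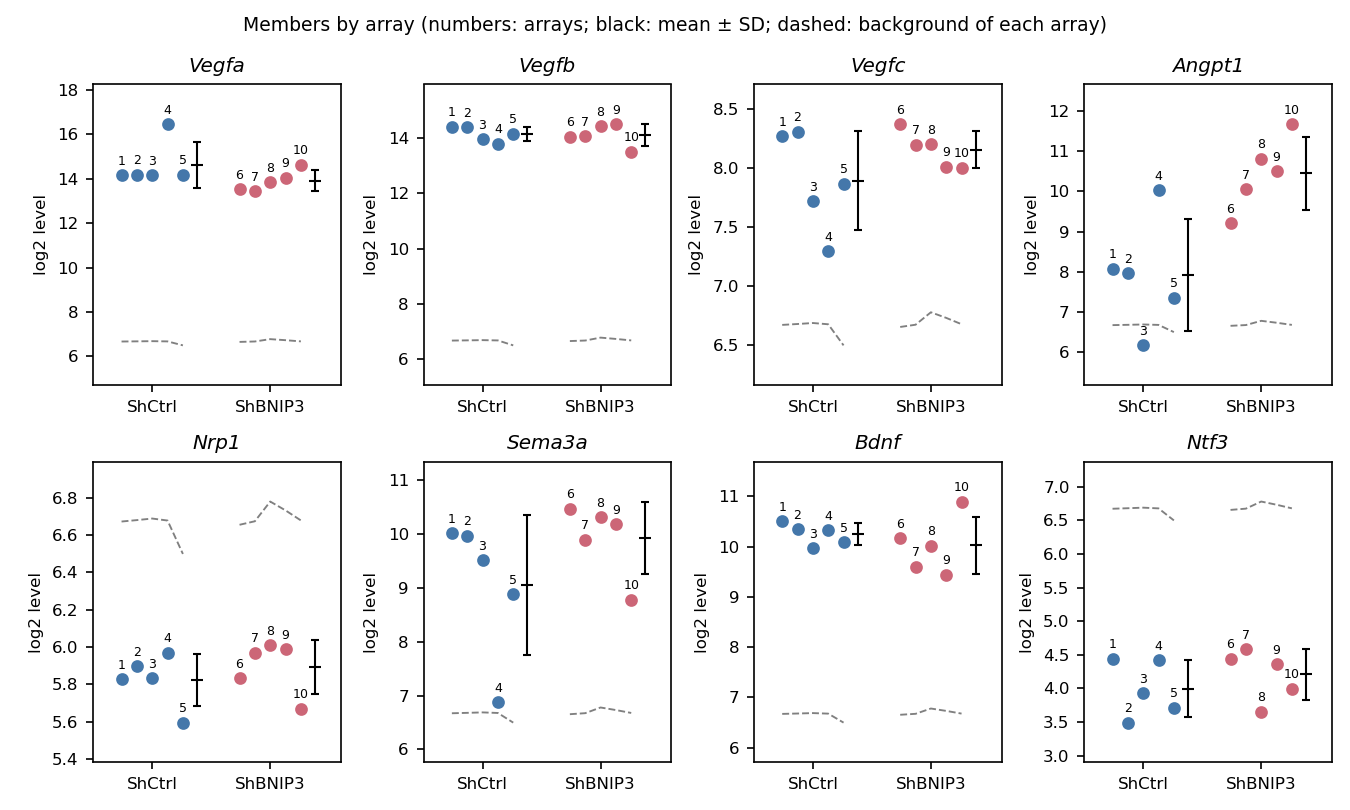
Log2 level of each of the 8 genes (y axis, own scale per panel) on the 5 ShCtrl and the 5 ShBNIP3 arrays; points carry the array number, black bars are mean ± SD and dashed lines the background level of each array. Angpt1 is higher on the ShBNIP3 arrays, Vegfa on ShCtrl array 4 lies at 16.45 above 14.15 to 14.18 on the other ShCtrl arrays, and Nrp1 and Ntf3 lie under the background level throughout.

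Vegfa did not pass the test over all arrays, and did once the pair of arrays that stood apart was left out. On ShCtrl arrays 1 to 5 its level was 14.15, 14.18, 14.17, 16.45 and 14.17, and on ShBNIP3 arrays 6 to 10 it was 13.54, 13.44, 13.85, 14.04 and 14.63. The ShCtrl arrays other than array 4 were nearly identical, array 10 was the highest of the ShBNIP3 arrays and the only one of them above those 4, and the groups overlapped. Over all arrays the log2 difference was -0.72 (SE 0.41, 95% interval -1.61 to 0.17, limma adjusted p = 0.296), and without ShCtrl array 4 alone it was -0.27 (adjusted p = 0.462). Without ShCtrl array 4 and ShBNIP3 array 10 the ShCtrl level was 14.2 ± 0.014 and the ShBNIP3 level 13.7 ± 0.28 (SD, n = 4 each), the groups did not overlap, and Vegfa fell 1.36-fold (log2 -0.45, SE 0.14, limma adjusted p = 0.048). In that fit 19.9% of all probesets were called and 23.6% had groups without overlap, and Vegfa and Angpt1 were the 2 members called.

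Genes known to act on Vegfa transcription or on the hypoxia-inducible factors had 3 of 11 measured members lower and 0 higher (27.3% called). Over all probesets the share called was 15.5%. Of the 10 above background on some array these 3 were called, near the 28.1% of all such probesets. Without arrays 4 and 10, 2 were lower and 1 was higher. Vhl, which targets the hypoxia-inducible factors for destruction, fell 1.78-fold (log2 -0.83, SE 0.13, limma adjusted p = 0.00073). Atf4, a bZIP factor that drives the integrated stress response, fell 1.92-fold (log2 -0.94, SE 0.15, limma adjusted p = 0.0010). Sp1, a factor that binds GC boxes, fell 1.37-fold (log2 -0.45, SE 0.14, limma adjusted p = 0.043). Sp1 kept its call without array 3 or without array 7, and leaving out any other single array lost it, with an adjusted p of up to 0.106, as did leaving out arrays 4 and 10 together (0.083). The oxygen-responsive genes Adm, which encodes the vessel-active peptide adrenomedullin, and Egln3, a prolyl hydroxylase, are named after their values were seen. The pair lay 5.49 and 5.63 above the other ShCtrl arrays on array 4, where Vegfa lay 2.28 above them, and 4.55 and 1.13 above the other ShBNIP3 arrays on array 10, where Vegfa lay 0.91 above them. Their differences over all arrays were -1.40 (limma adjusted p = 0.503) and 1.79 (limma adjusted p = 0.260). Without both arrays Adm fell by 1.21 on the log2 scale (limma adjusted p = 0.00036) and Egln3 was higher in ShBNIP3 (limma adjusted p = 8.0e-05), with no fold given because all 4 ShCtrl arrays left were at background.

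The other VEGF ligands on the list did not pass the test. Vegfb, which is known for effects on fatty acid handling in endothelium more than on vessel growth, lay at 14.42, 14.39, 13.97, 13.79 and 14.16 on the ShCtrl arrays and at 14.05, 14.07, 14.42, 14.49 and 13.51 on the ShBNIP3 arrays. The groups overlapped over nearly their whole range, with a log2 difference of -0.04 (SE 0.19, 95% interval -0.45 to 0.38, limma adjusted p = 0.937) that changed sign with the arrays used. Vegfc, the ligand for lymphatic vessels, was at 8.27, 8.31, 7.72, 7.30 and 7.87 in ShCtrl and at 8.37, 8.20, 8.20, 8.01 and 8.01 in ShBNIP3. Its difference was 0.27 (SE 0.18, 95% interval -0.13 to 0.66, limma adjusted p = 0.412), with array 4 the lowest. Vegfd, the other ligand of the same receptor, rose 1.46-fold (log2 0.54, SE 0.17, limma adjusted p = 0.045). Vegfd kept its call without array 5 or without array 10, but not without any other single array (adjusted p up to 0.111) or with a trended and robust variance (0.051). Pgf, placental growth factor, was at background on all arrays.

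The receptors of these ligands were mostly at background. Nrp1 itself lay between 5.59 and 5.97 on the ShCtrl arrays and between 5.67 and 6.01 on the ShBNIP3 arrays, under the background level on all 10, and no fold is given. Its paralog Nrp2, which binds VEGF and class 3 semaphorins as well, was well above background. It lay at 16.33, 16.27, 15.96, 15.38 and 15.84 in ShCtrl and at 15.57, 15.40, 14.91, 14.87 and 15.02 in ShBNIP3. The ShBNIP3 arrays were the lower ones, with an overlap between ShCtrl array 4 and ShBNIP3 arrays 6 and 7. Nrp2 fell 1.74-fold (95% interval of the log2 difference -1.23 to -0.37, SE 0.20, limma adjusted p = 0.015). It passed in all 10 fits with 1 array left out. The VEGF receptors Flt1 and Kdr and the angiopoietin receptor Tek were at background on all arrays. Flt4, the receptor of Vegfc and Vegfd, passed the test as higher (limma adjusted p = 0.046, up to 0.113 with any single array but 4 or 9 left out) while at background on all ShCtrl and 4 of 5 ShBNIP3 arrays, so no fold is given.

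Sema3a did not pass the test with or without the arrays that stood apart. Its level was 10.02, 9.96, 9.51, 6.88 and 8.88 on the ShCtrl arrays and 10.46, 9.89, 10.30, 10.18 and 8.78 on the ShBNIP3 arrays. Arrays 4 and 10 were the lowest of their groups, and the groups overlapped. The log2 difference was 0.87 (SE 0.53, 95% interval -0.27 to 2.02, limma adjusted p = 0.332), 0.33 without ShCtrl array 4 and 0.62 without both arrays (limma adjusted p = 0.086). The class 3 semaphorins and plexins had 2 of 8 measured members lower and 0 higher (25% called, against 15.5% of all probesets). Of the 7 above background on some array these 2 were called, near the 28.1% of all such probesets. Sema3b fell 2.24-fold (log2 -1.16, SE 0.14, limma adjusted p = 0.00017). Sema3e, which acts on vessels through Plxnd1, fell 2.09-fold (limma adjusted p = 0.0051, log2 -1.06, SE 0.22). The semaphorin receptor chains Plxna2 and Plxna3 differed by -0.30 and -0.24 (limma adjusted p = 0.287 and 0.311), close to the background level. Without arrays 4 and 10 Plxna2 passed as lower (limma adjusted p = 0.038), at a level near background. Plxna1 and Plxna4 were not analysed here.

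Of the neurotrophins, none passed the test: 0 of 3 measured were called with limma, and 0 had an unadjusted p under 0.05. Of all probesets 15.5% were called, and 28.1% of those above background. Only 2 of the 3 neurotrophins were above background, so a count of 0 says little about them. Bdnf lay at 10.50, 10.34, 9.97, 10.32 and 10.09 on the ShCtrl arrays and at 10.16, 9.60, 10.01, 9.44 and 10.90 on the ShBNIP3 arrays. Arrays 7 and 9 were the lowest and array 10 the highest of all, so the ShBNIP3 arrays spread more widely (SD 0.57) than the ShCtrl arrays (SD 0.22, n = 5 each). The log2 difference was -0.22 (SE 0.24, 95% interval -0.73 to 0.29, limma adjusted p = 0.627), and -0.42 without arrays 4 and 10 (limma adjusted p = 0.139). Ntf3 was at background on all 10 arrays, between 3.49 and 4.44 in ShCtrl and between 3.65 and 4.58 in ShBNIP3. Ntf4, another ligand of Ntrk2, was above background and differed by 0.11 (limma adjusted p = 0.676). Of 10 measured CREB and activity-dependent regulators of Bdnf, 0 passed with limma over all arrays, against 15.5% of all probesets. Among these 10, 2 had an unadjusted p under 0.05. Crem, a CREB relative named after its value was seen, differed by 1.34 (limma adjusted p = 0.069) and rose 2.12-fold without arrays 4 and 10 (limma adjusted p = 0.00047).

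The receptors Ntrk2, Ntrk3 and Ngfr were at background on all arrays. Among the receptors and processing proteins of the neurotrophins 2 of 10 measured rose and 0 fell, against 15.5% of all probesets called. Of the 5 above background on some array these 2 were called, against 28.1% of all such probesets. Sort1, the sorting receptor that binds neurotrophin precursors, lay between 8.17 and 8.47 in ShCtrl and between 8.96 and 9.74 in ShBNIP3 with no overlap, and rose 1.89-fold (log2 0.92, SE 0.15, limma adjusted p = 0.0011). Furin, a protease that cuts precursors of growth factors, rose 2.01-fold (log2 1.01, SE 0.23, limma adjusted p = 0.010). Both passed in all 10 fits with 1 array left out.

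**Figure D2:**
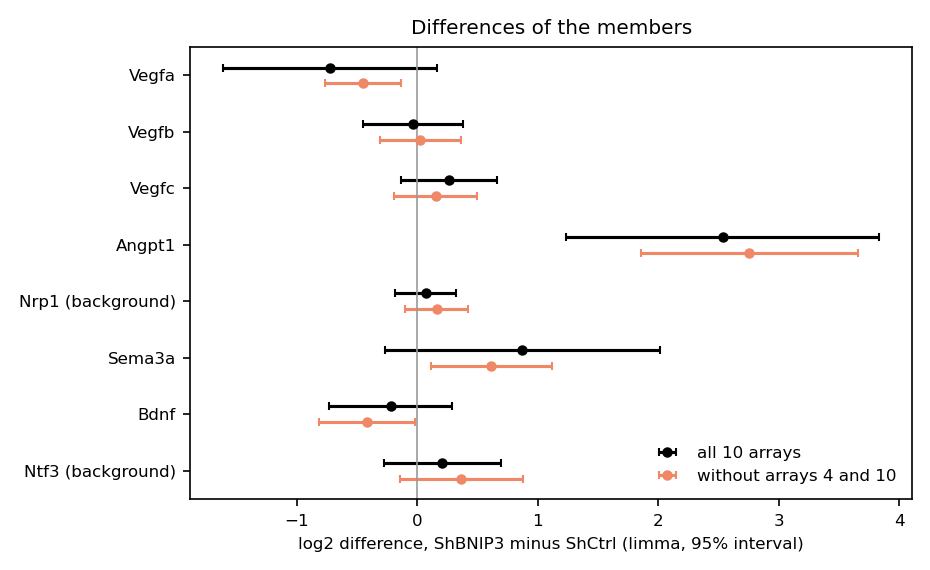
Log2 difference (x axis, ShBNIP3 minus ShCtrl) of each of the 8 genes with its 95% interval from limma, over all 10 arrays (black) and without ShCtrl array 4 and ShBNIP3 array 10 (orange). Angpt1 lies at 2.53 and 2.76; Vegfa moves from -0.72 with an interval that spans 0 to -0.45.

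For each of the 6 members above background, arrays 4 and 10 differed from their own groups with the same sign, though not always by much. The share of all probesets with the same sign on both arrays was not taken. Relative to the mean of the other 4 arrays of its group, ShCtrl array 4 was higher by 2.64 for Angpt1 and 2.28 for Vegfa and differed by -2.72 for Sema3a. ShBNIP3 array 10 was higher by 1.52 for Angpt1 and 0.91 for Vegfa and differed by -1.43 for Sema3a. Vegfb (-0.44 and -0.75) and Vegfc (-0.75 and -0.19) were lower on both, and Bdnf was near its group on array 4 (0.10) and higher on array 10 (1.09). The median absolute deviation over all probesets was 0.26 on array 4 and 0.24 on array 10, larger than that of Bdnf on array 4 and of Vegfc on array 10. The labels give no culture, animal or date for these arrays, and the part of such factors was not tested.

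**Figure D3:**
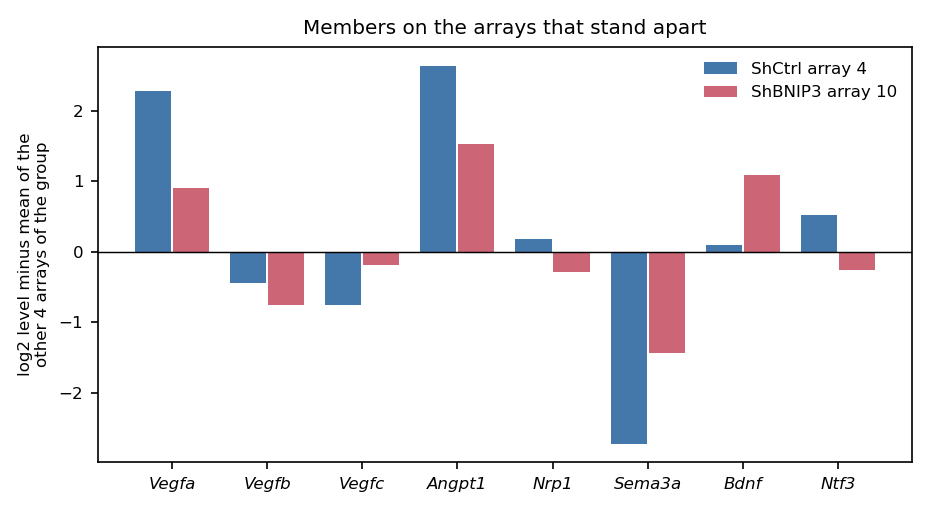
Log2 level of each gene on ShCtrl array 4 (blue) and ShBNIP3 array 10 (red) minus the mean of the other 4 arrays of the same group (y axis). Vegfa and Angpt1 are higher and Sema3a is lower on both arrays.

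The members sit in a wider set of 12 lists of angiogenic, neurotrophic and axon guidance genes and their regulators, with 108 of 134 genes measured. Of these 10 rose and 10 fell (18.5% called, against 15.5% of all probesets), 37 were at background on all arrays, and the median log2 difference was 0.06 against 0.02 over all probesets. Of the 71 above background on some array 28.2% were called, near the 28.1% of all such probesets. Without arrays 4 and 10, 17 rose and 15 fell (29.6%, against 19.9% of all probesets). The share among those above background was not taken for that fit, so this difference may reflect expression level alone. Over all arrays 25% of the angiopoietin list, 27.3% of the other secreted factors and 10% of the inhibitors were called. For the GDNF list it was 14.3% and for the other axon guidance genes 15.4%. For the VEGF receptors and coreceptors it was 40%, 2 of 5 genes. These shares count genes at background, as the 15.5% of all probesets does. Of the genes above background on some array, 2 of 4 angiopoietin genes, 3 of 10 other secreted factors and 1 of 6 inhibitors were called. For the GDNF list it was 2 of 5, for axon guidance 2 of 7 and for the VEGF receptors 2 of 2. The share of all such probesets was 28.1%, and these counts are too small to set apart from it.

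Among angiopoietins, angiopoietin-like proteins and Tie receptors 2 of 8 measured rose and 0 fell, Angpt1 and Angpt4. Angpt4, a further Tek ligand, rose 2.30-fold (log2 1.20, SE 0.31, limma adjusted p = 0.020). It lost its call when array 1, 6, 7, 8 or 9 was left out (adjusted p up to 0.0569). It lay between 11.96 and 12.21 on ShBNIP3 arrays 6 to 9 and at 10.31 on array 10, inside the ShCtrl range of 10.23 to 10.83. Angpt2, which antagonises Angpt1 in many settings, was at background on all arrays.

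Of 11 other secreted angiogenic factors 1 rose and 2 fell, and 3 rose and 3 fell without arrays 4 and 10. Fgf2, basic fibroblast growth factor, was higher on every ShBNIP3 array (12.83 to 14.23) than on any ShCtrl array (11.27 to 12.17) and rose 3.28-fold (log2 1.71, SE 0.26, limma adjusted p = 0.00072). Esm1, a proteoglycan best known from endothelium, fell 2.46-fold (log2 -1.30, SE 0.38, limma adjusted p = 0.037). It lost its call when array 3, 5, 6, 7, 8 or 9 was left out (adjusted p up to 0.0916) and with a trended and robust variance (0.061). The peptide ligand Apln passed the test as lower (limma adjusted p = 0.030, up to 0.0742 without array 1, 5, 7, 8 or 10) while at background on all ShBNIP3 and 4 of 5 ShCtrl arrays, so no fold is given. Of 10 inhibitors of angiogenesis 1 fell and 0 rose, and 3 fell and 1 rose without arrays 4 and 10. Timp3, a matrix-bound inhibitor of metalloproteinases that also blocks VEGF signalling, fell 3.00-fold (log2 -1.58, SE 0.15, limma adjusted p = 2.1e-05), with all ShBNIP3 arrays (7.21 to 7.83) under all ShCtrl arrays (8.94 to 9.28). The thrombospondin Thbs2, the protease Adamts1 and Serpinf1, pigment epithelium-derived factor, are named after their values were seen. Over all arrays they differed by -0.36, -0.70 and 0.41 (limma adjusted p = 0.146, 0.104 and 0.310). Without arrays 4 and 10 Thbs2 and Adamts1 fell 1.37-fold and 1.78-fold and Serpinf1 rose 1.39-fold (limma adjusted p = 0.029, 0.00070 and 0.013).

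Of 14 measured members of the GDNF family, their receptors and other neurotrophic factors, 1 rose and 1 fell, and 2 rose and 2 fell without arrays 4 and 10. Lif, a cytokine with neurotrophic effects, rose (limma adjusted p = 0.0072), and no fold is given because its ShCtrl mean was under the background level. It passed in all 10 fits with 1 array left out. Of the ShCtrl arrays 4 were under background (5.16 to 5.85) and array 4 lay at 8.81, inside the ShBNIP3 range of 8.06 to 10.66. Artn, artemin, a factor for sensory neurons, was above background on all ShCtrl arrays and at background on all ShBNIP3 arrays, at least 1.34-fold lower (limma adjusted p = 9.2e-05). Its coreceptor Gfra3 and the kinase Ret were at background on all arrays. Of 13 other axon guidance genes 2 rose and 0 fell, and 3 rose and 0 fell without arrays 4 and 10. The netrin Ntn1 rose 4.88-fold (log2 2.29, SE 0.71, limma adjusted p = 0.047). On the ShCtrl arrays other than array 4 it lay between 6.62 and 7.06, close to background, and on array 2 under it, so the fold is uncertain. Ntn1 kept its call without array 4 or without array 6, but not without any other single array (adjusted p up to 0.112) or with a trended and robust variance (0.124). The Slit receptor Robo2 rose 2.18-fold (log2 1.13, SE 0.25, limma adjusted p = 0.0079).

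**Figure D4:**
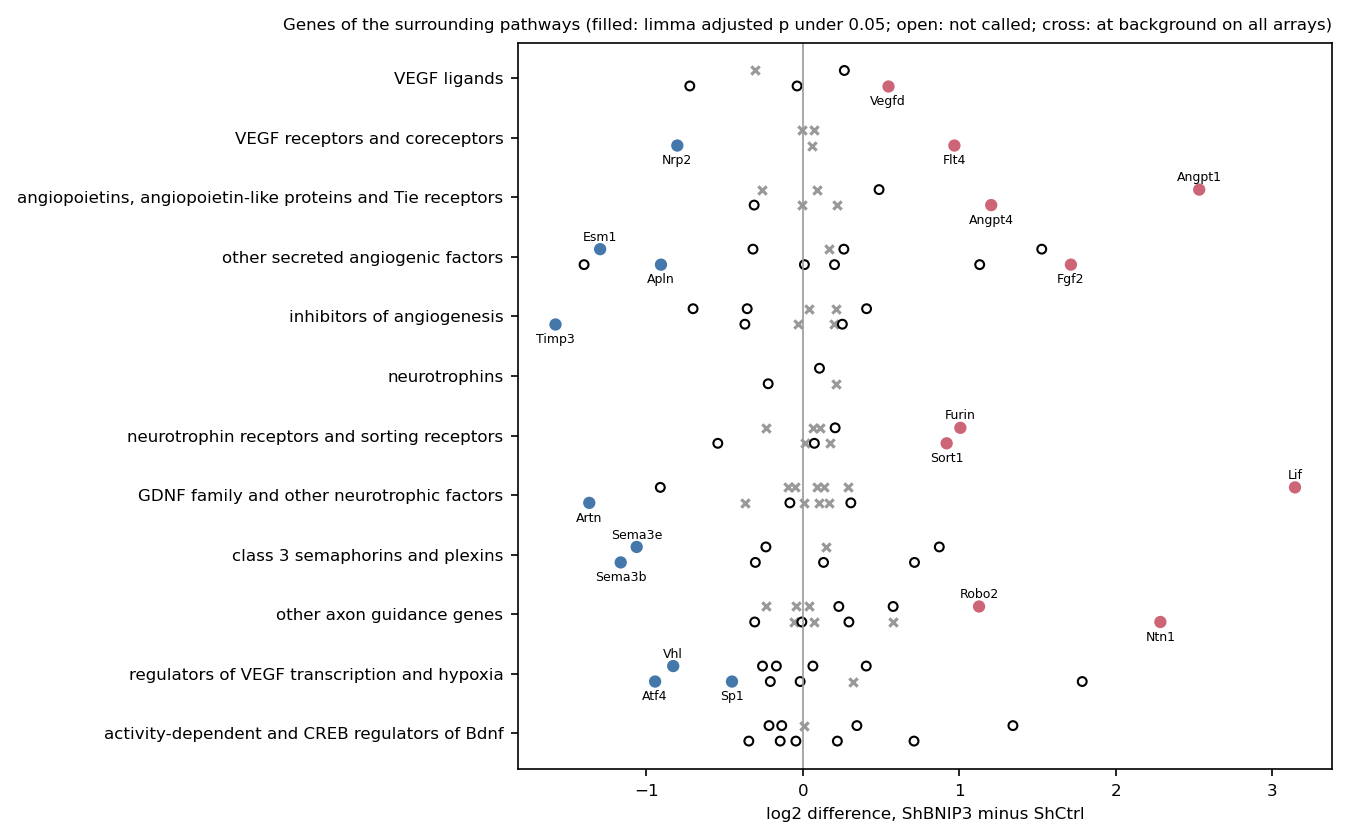
Log2 difference (x axis, ShBNIP3 minus ShCtrl) of every measured gene of the 12 lists (y axis). Filled points passed at a limma adjusted p under 0.05 (red higher, blue lower), open points did not, and crosses were at background on all arrays; 10 genes are higher and 10 lower.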

How the data were processed

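RNA was hybridised to rat whole-transcript arrays. The values deposited by the authors are log2 signals, 1 for each probeset on each array, normalized with sst-rma, per the labels. The Transcriptome Analysis Console is listed in the submitters' processing notes, and its version is not given in the sources used here, nor is the genome build. RNA extraction text in the labels also speaks of mouse disc tissue and was not used. Of 24834 probesets 1646 controls were left out, and 23188 were tested with limma 3.58.1 (lmFit, eBayes, R 4.3.3), ShBNIP3 minus ShCtrl, with Benjamini-Hochberg adjustment over all of them and a threshold of 0.05. The script was tested on simulated data. Groups and array numbers come from the titles. Symbols come from the platform annotation, and the probeset with the highest mean stands for a gene. Background is the 95th percentile of 23 antigenomic probesets per array. A bound ("at least") sets the brighter group's mean against that level. The number of arrays limits the precision. The members and lists were chosen with earlier results of these data known. Genes named are Bnip3, the members, the measured receptors and relatives of the members, every list gene that passed (up to 4 per list), and the 3 genes nearest to a called member; exceptions are marked in the text, and Ntf4 and the cell type markers given with values were named after these were seen. Alternatives were leaving out arrays, a trended and robust variance, array weights, other scalings, filters on dim probesets and a 2-fold threshold.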

Additional observations from a re-analysis of the deposited data

Results flagged for a closer look

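Among 108 combinations of a named gene above background and a group of 5 arrays, 23 held a value whose gap to the nearest other array was over 0.71 of the whole range (Dixon's criterion, which chance meets in about 1 in 20 groups). Of the 23, 15 were on ShCtrl array 4 and 7 on ShBNIP3 array 10. Adm, Egln3, Crem, Adamts1, Serpinf1, Kcnj8 and Abcc9 were named because their calls differ without these arrays, which adds to both counts.

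On ShCtrl array 4 the highest values were those of Vegfa (16.45 with the next at 14.18, gap share 0.986), Egln3 (11.62 and 6.09, 0.969), Adm (14.33 and 9.06, 0.941), Rnase10 (8.73 and 6.30, 0.921), Ntn1 (9.88 and 7.06, 0.865), Esm1 (11.53 and 9.58, 0.837), Fgf2 (12.17 and 11.43, 0.816), Lif (8.81 and 5.85, 0.813), Cyp7b1 (8.01 and 5.42, 0.753) and Adamts1 (15.89 and 15.32, 0.73). The lowest there were Abcc9 (10.85 and 13.17, 0.853), Kcnj8 (8.87 and 10.49, 0.822), S100b (8.25 and 9.24, 0.791), Serpinf1 (15.01 and 15.70, 0.785) and Sort1 (8.17 and 8.39, 0.722).

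On ShBNIP3 array 10 the highest values were those of Adm (12.18 with the next at 8.08, gap share 0.833), Fgf2 (14.23 and 13.09, 0.811), Crem (12.52 and 10.33, 0.799) and Adamts1 (15.73 and 14.56, 0.761). The lowest there were Angpt4 (10.31 and 11.96, 0.872), Serpinf1 (15.16 and 16.17, 0.813) and Abcc9 (11.75 and 14.02, 0.764). Vhl was lowest on ShBNIP3 array 7, at 10.01 with the next at 10.16 (0.778), a gap of small size.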

How the results depend on the processing

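Angpt1 and Bnip3 kept their direction and passed in every alternative run, Angpt1 with limma adjusted p-values up to 0.043 (trended and robust variance). The number of members called stayed at 1 except without ShCtrl array 4 and ShBNIP3 array 10, where it was 2, with Vegfa at -0.45 (limma adjusted p = 0.048). With 1 array left out Vegfa ranged from -0.91 to -0.27 and was not called. Vegfb, near 0 with all arrays, turned to 0.024 without arrays 4 and 10 and to 0.033 after quantile normalization, and ranged from -0.13 to 0.11 with 1 array left out; it was called in none of these, and the cause was not tested. With 1 array left out the members called stayed at 1, and the probesets called ranged from 2746 to 3960. A 2-fold threshold left 969 of 3590 probesets, by its construction. Nrp1 and Ntf3 have no value under the 2 filters on dim probesets, since they were at background. No paired analysis was run, since the array numbers in the titles, 1 to 5 and 6 to 10, are not shared between the groups. Separate numbers do not show that the arrays were unpaired. Cxcl12, named after its values were seen, lay at 14.80, 14.77, 14.76 and 14.84 on arrays 1, 2, 6 and 7. On arrays 3, 5, 8 and 9 it lay between 12.89 and 13.97. How many genes follow such blocks across both groups was not counted, and the fits hold no term for them. The number of arrays and the background level, not a sequencing depth, limit these results.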
